A study of Mus musculus with 8 samples.

Results

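Glutamate and GABA carry most fast signalling between neurons in the mammalian brain. The H3K27me3 mark was examined here at 38 autosomal genes for their receptors. Members were chosen by name from the ionotropic and metabotropic receptor families, and every region of the deposited table that overlapped a member's gene body, or the 5 kb on either side of it, was taken once. This gave 60 of the 13585 regions, which were compared with the 11647 other autosomal regions of the table.

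The study asked whether the MommeD43 variant of SMCHD1, a chromatin protein involved in gene silencing, alters the distribution of H3K27me3. The mark was profiled by ChIP-seq, the sequencing of immunoprecipitated chromatin, in primary NSCs (neural stem cells) of female C57BL/6J mice, derived from E14.5 cortex and grown for few passages. Both genotypes carried GFP-tagged endogenous Smchd1: WT cells were Smchd1GFP+/+, and MommeD43 cells were Smchd1GFPMommeD43/MommeD43. There were 3 independent lines per genotype, and 1 line of each also gave a whole cell extract (WCE) library, which was not analysed here. The table held 1 pooled value per region and genotype, a mean over 3 libraries on the log2 scale, so no value below carries an SD and no test of genotype was possible. "Higher" and "lower" therefore describe these pooled libraries. By the smallest steps in the values, 1 read stood for 3.27 normalized counts in the WT column and for 2.63 in the MommeD43 column, and a region held a median of 100.1 and 129.96 reads per library, respectively. Intervals given with differences are 95% intervals that cover counting error only. Copies of 1 molecule could not be told from separate molecules, and the intervals leave out all variation between lines.

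H3K27me3 is placed on histone H3 by Polycomb repressive complex 2 and marks genes that are held silent, often around CpG-rich starts of genes used in other lineages or at later stages. Ionotropic receptors are ion channels built from several subunits: AMPA, kainate and NMDA receptors pass cations on binding glutamate, and GABA-A receptors pass chloride on binding GABA. Metabotropic glutamate receptors and the GABA-B receptor act through G proteins. Most of these genes are used by differentiating neurons or glia, and neural stem cells precede both. Of 8 marker genes of neural stem cells, 5 (Sox2, Vim, Fabp7, Notch1 and Sox9) had no H3K27me3 region over their start, whereas Nes, Pax6 and Hes1 had one. All 8 marker genes of non-neural lineages had one. Over all 20780 autosomal protein-coding genes the share was 29.0%, so the count for neural stem cell markers was near that of genes at large.

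Promoter sequences are shown for the members at the ends of the range. Each is the 250 bases before the RefSeq start on GRCm38.p6, written 5′ to 3′ on the gene's own strand with every CG dinucleotide in capitals. A CG reads the same on both strands and cannot overlap another, and 93.2% of 15687 autosomal coding promoters held at least 1. Grin3b (chr10:79970474-79970723, plus strand) had the highest H3K27me3 per kilobase over a start in the mean of both genotypes, and Gabra2 (chr5:71095850-71096099, minus strand) the lowest. Among starts without a region, Gria2 (chr3:80802836-80803085, minus strand) had the most CG and Gabrg1 (chr5:70842618-70842867, minus strand) the fewest, at 1, as many as Gabrp and Gabrr2. Grm7 (chr6:110645348-110645597, plus strand) and Grik2 (chr10:49788755-49789004, minus strand) were added after their values were seen, as the starts with the highest and lowest difference between genotypes among members with a listed promoter.
Grin3b: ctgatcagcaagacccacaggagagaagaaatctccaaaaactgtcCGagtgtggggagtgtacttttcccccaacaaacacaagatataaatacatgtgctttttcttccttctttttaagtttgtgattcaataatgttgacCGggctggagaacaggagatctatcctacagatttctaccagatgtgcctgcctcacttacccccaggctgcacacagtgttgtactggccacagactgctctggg
Gabra2: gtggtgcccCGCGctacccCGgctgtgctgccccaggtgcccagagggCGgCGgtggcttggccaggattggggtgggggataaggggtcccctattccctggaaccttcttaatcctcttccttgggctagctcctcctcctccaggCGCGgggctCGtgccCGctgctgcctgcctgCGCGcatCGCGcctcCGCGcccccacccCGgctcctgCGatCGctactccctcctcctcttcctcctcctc
Gria2: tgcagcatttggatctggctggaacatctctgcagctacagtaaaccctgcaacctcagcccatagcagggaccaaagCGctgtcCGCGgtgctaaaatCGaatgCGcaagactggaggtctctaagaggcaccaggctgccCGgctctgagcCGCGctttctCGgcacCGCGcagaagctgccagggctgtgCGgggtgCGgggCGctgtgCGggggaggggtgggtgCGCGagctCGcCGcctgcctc
Gabrg1: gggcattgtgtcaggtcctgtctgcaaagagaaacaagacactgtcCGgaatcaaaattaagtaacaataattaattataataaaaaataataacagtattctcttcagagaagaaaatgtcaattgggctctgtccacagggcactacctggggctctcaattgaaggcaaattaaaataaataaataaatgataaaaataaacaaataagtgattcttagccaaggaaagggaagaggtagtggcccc
Grm7: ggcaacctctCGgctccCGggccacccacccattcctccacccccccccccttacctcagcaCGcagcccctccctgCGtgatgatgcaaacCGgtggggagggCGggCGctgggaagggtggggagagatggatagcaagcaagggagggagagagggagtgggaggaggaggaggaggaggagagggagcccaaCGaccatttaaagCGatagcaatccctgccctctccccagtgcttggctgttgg
Grik2: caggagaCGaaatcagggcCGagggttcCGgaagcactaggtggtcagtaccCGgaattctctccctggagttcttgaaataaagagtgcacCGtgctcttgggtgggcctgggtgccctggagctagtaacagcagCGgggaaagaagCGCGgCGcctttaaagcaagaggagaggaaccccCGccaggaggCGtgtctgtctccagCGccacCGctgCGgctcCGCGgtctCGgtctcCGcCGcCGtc

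Grin3b held 2 CG in these bases, and 85.0% of autosomal coding promoters held as many or more. Gabra2 held 18 (30.7%), Gria2 19 (27.5%), Gabrg1 1 (93.2%), Grm7 9 (56.2%) and Grik2 20 (24.8%). The RefSeq promoter table listed 29 of the 38 members; Gria1, Grik1, Grin2a, Grin2b, Grin3a, Grid1, Grm4, Grm5 and Gabrd were not listed. A region lay over the RefSeq start of 12 of the 14 listed members with at least 10 CG (85.7%), and of 6 of the 15 with fewer (40%). For all autosomal coding genes these shares were 33.4% of 8386 promoters and 22.7% of 7301. Grin3b, with few CG, lay inside a region of 272.45 kb that also covered the starts of 20 other coding genes. Gria2 and Gria4 had 19 and 16 CG and no region.

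H3K27me3 regions, whose coordinates are all on GRCm38, lay over the annotated start (GENCODE vM21) of 24 of the 38 members (63.2%), against 29.0% of 20780 autosomal protein-coding genes. Another 2 members, Grik5 and Grin2d, had a region in the body only. The Grik5 region lay at the 3′ end of the gene, and the region nearest to the Grik5 start was 21.2 kb away from it, outside the 5 kb flank. The Grin2d region covered 93.8% of the body, its edge lay 2.9 kb from the GENCODE start, and the RefSeq start fell inside it. Any region in the body or flanks was thus present at 26 of 38 members (68.4%), against 8856 of 20780 autosomal protein-coding genes (42.6%). Regions were present at all 5 kainate receptor genes, 6 of 7 NMDA receptor genes, 5 of 7 metabotropic glutamate receptor genes, 6 of 10 GABA-A subunit genes outside the rho group, both GABA-B genes and the delta receptor gene Grid1.

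The other 12 members had no region. These were the AMPA subunit genes Gria2 and Gria4, the NMDA subunit gene Grin3a, the metabotropic genes Grm3 and Grm5, the GABA-A genes Gabra6, Gabrg1, Gabrg3 and Gabrp, and the rho subunit genes Gabrr1, Gabrr2 and Gabrr3. From the gene body, the nearest region was 18.7 kb away for Gabrp, 88.6 kb for Grin3a and 95.2 kb for Gabra6. It was 668.5 kb away for Gria2, 1084.2 kb for Gria4 and 1260.5 kb for Grm5. As the table listed called regions alone, an absent row means no called region and not a level of 0. GRIA2 is the subunit that keeps most AMPA receptors closed to calcium, and GRM3 and GRM5 are the metabotropic receptors best known from astrocytes and their precursors.

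Over the starts, H3K27me3 ranged from 13.7 normalized counts per kb in WT and 11.1 in MommeD43 up to 161.8 and 184.8, as antilogs of the pooled values divided by region length. Grin3b, Grin1 and Grin2b were the highest in both genotypes, though the Grin3b and Grin1 regions also held 20 and 2 other coding starts. Grin1 encodes the subunit that every NMDA receptor contains. It had 130.5 normalized counts per kb in WT and 184.8 in MommeD43, and the region (chr2:25277151-25331350) covered the whole gene. Grin2b, the NMDA subunit that prevails in the embryonic brain, had 106.9 and 170.2 over a 38 kb region (chr6:136142901-136180900) that held no other coding start. The lowest start was that of Grm7 in WT, at 13.7, and that of Grik2 in MommeD43, at 11.1. Gabra2 and Gabrb2, subunits of synaptic GABA-A receptors, were also low, with 15.8 and 18.6 in WT and 17.2 and 22.3 in MommeD43. Low levels thus rested on few reads, with 28.5 per library in WT for Gabra2.

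**Figure D1:**
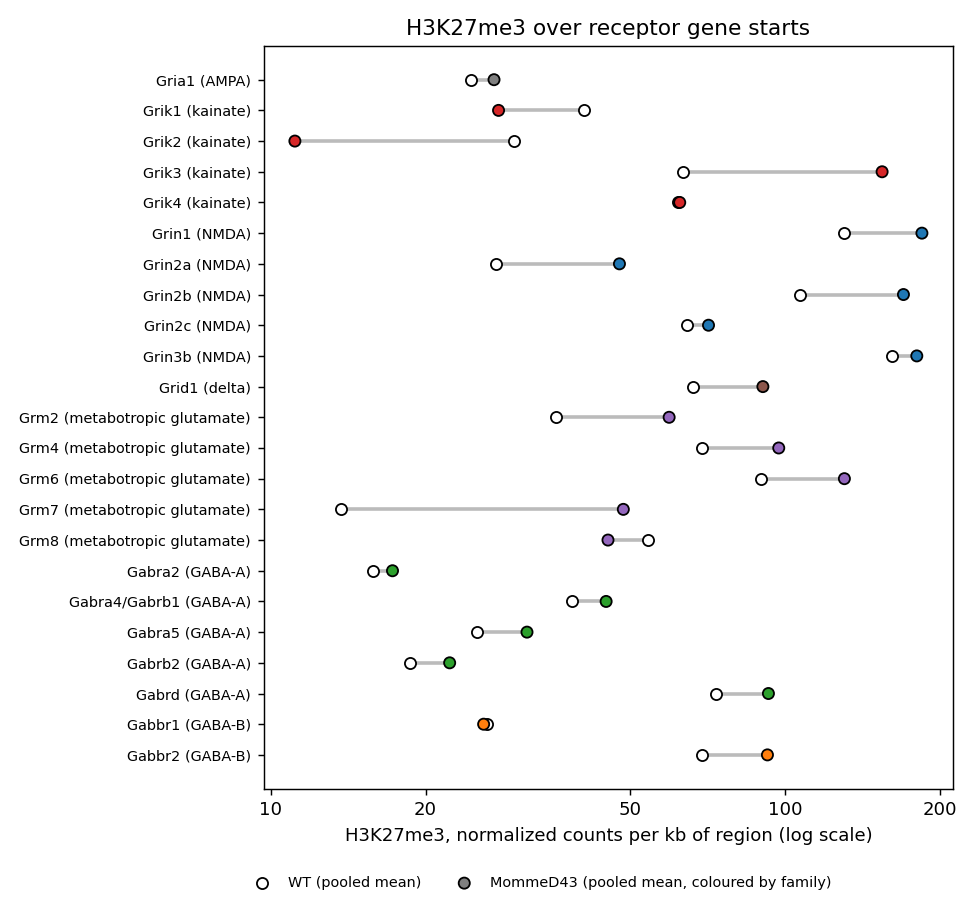
H3K27me3 over the starts of member genes in WT (open circles) and MommeD43 (filled circles, coloured by receptor family), in normalized counts per kb of region on a log axis. Each circle is 1 pooled mean over 3 libraries, without an error. The widest gaps are at Grm7, Grik2 and Grik3, and Grik1, Grik2, Grm8 and Gabbr1 lie lower in MommeD43.

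Across the 60 member regions the difference (MommeD43 minus WT, log2) had a median of 0.23 with quartiles of -0.07 and 0.50, and 43 of 60 regions (71.7%) were higher in MommeD43. The 11647 other autosomal regions had a median of 0.07, and 6711 of them (57.6%) were higher. The size of the common shift depends on the scaling. Setting the summed counts of both columns equal takes 0.24 from every difference, which brings the member median to -0.0090 with 30 regions higher and 30 lower, and the median of all 11707 autosomal regions to -0.17. Differences also followed base composition. Over the other autosomal regions Spearman's rho between GC content and difference was 0.58, and over the members it was 0.50; regions of 1 genome share libraries and are not independent. The 20 member regions of lowest GC content (39.7% to 47.7%) had a median difference of 0.02, the 20 in the middle 0.13 and the 20 of highest GC content (50.5% to 56.1%) 0.48. The part of base composition in these differences was not tested.

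Each member region was therefore also read against the 200 other autosomal regions most like it in GC content and mean value. The adjusted difference is the region's difference minus the median of those 200 regions, and it does not depend on the common scaling. Its median over the members was -0.0074, with 28 regions higher and 32 lower, so the middle of the members was level with regions like them. Above the upper quartile of the like regions lay 19 of 60 member regions (31.7%), against 25.2% of autosomal regions, and 18 (30.0%) lay below the lower quartile, against 25%. Outside the counting interval around 0 lay 42 of 60 (70.0%), against 63.0% of autosomal regions. Grik4 and Gabbr2 supplied 23 of the 60 regions, and regions along 1 gene are not independent. Of the 60 regions, 9 also held the start of a coding gene outside the members. Without both genes the adjusted median over the other 37 regions was 0.19 and 23 were higher.

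**Figure D2:**
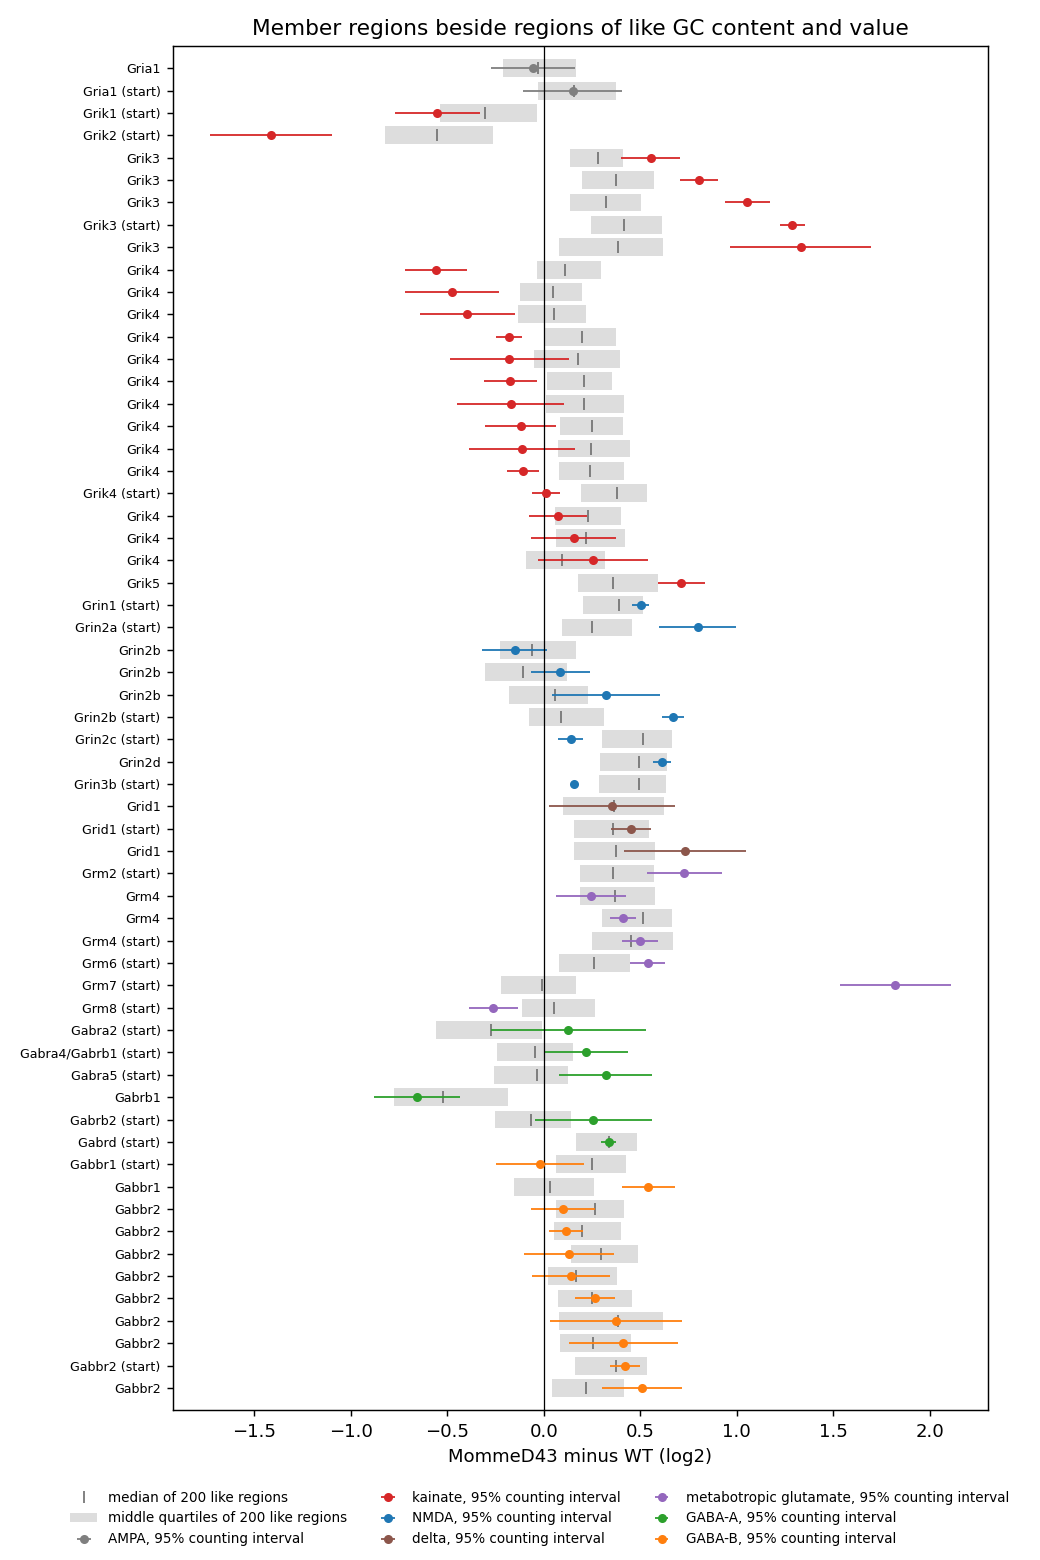
Difference between genotypes (MommeD43 minus WT, log2) at all 60 member regions, grouped by gene and coloured by family, with 95% counting intervals. Grey bars span the middle quartiles of the 200 like regions of each and grey ticks their median. Grm7 and all Grik3 regions lie to the right of their bars, and Grik2 and 11 of 14 Grik4 regions to the left.

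A difference of at least 1, a doubling, was reached by 4 member regions in the direction of MommeD43, against 2.28% of autosomal regions, and by 1 in the direction of WT, against 2.93%. The 4 were the Grm7 start and 3 regions of Grik3, and the 1 was the Grik2 start. With the GC trend over autosomal regions removed, 2 regions stayed higher by at least 1 and none lower, and with Grik3 left out 1 stayed higher. The region next below the threshold was a further Grik3 region at 0.80.

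**Figure D3:**
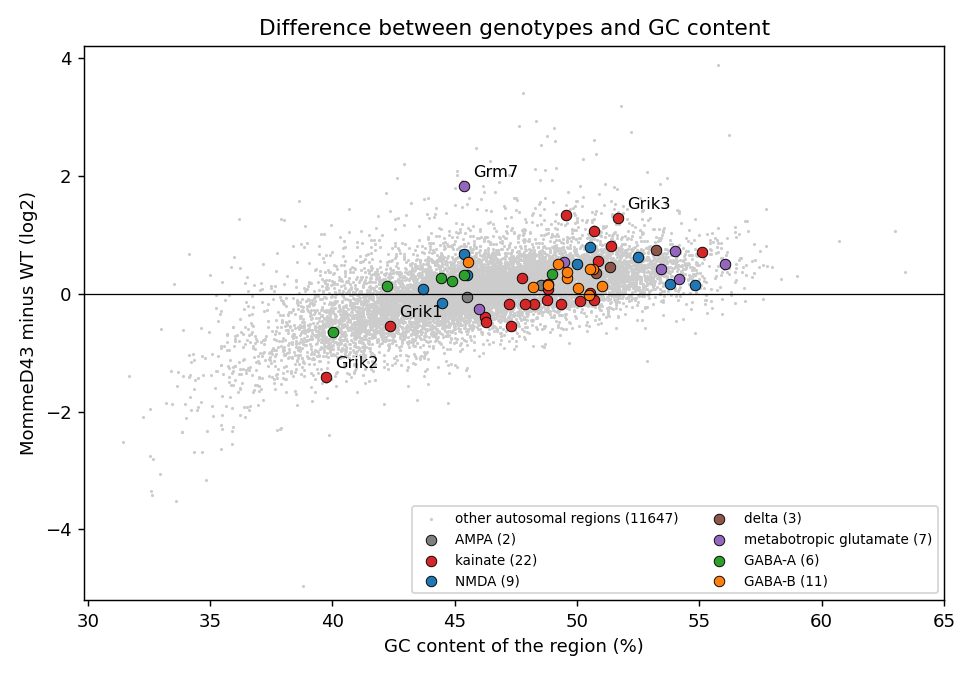
Difference between genotypes (MommeD43 minus WT, log2) against GC content (%), for 11647 other autosomal regions (grey) and 60 member regions (coloured by family). Grey points lie higher at high GC content. Grm7 stands above most grey points of its GC content, and Grik2 sits at the low-GC end of the members.

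Grm7, which encodes a presynaptic glutamate receptor that restrains transmitter release, had the highest difference among the members. The 9.5 kb region over its start (chr6:110642001-110651500) had 13.7 normalized counts per kb in WT and 48.5 in MommeD43, or 39.9 and 174.9 reads per library. The difference was 1.82 (1.54 to 2.11), a 3.54-fold higher value in MommeD43, and it was higher than in all 200 like regions, whose median was -0.0066. In WT the Grm7 start was the lowest of all member starts per kilobase. Its promoter, printed above, held 9 CG.

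The other metabotropic receptor genes with a region were closer to their like regions. Grm2 and Grm4 are group II and group III receptors found on presynaptic terminals, and Grm6 is the glutamate receptor of retinal ON bipolar cells. Their starts had differences of 0.73 (0.53 to 0.92), 0.50 (0.40 to 0.59) and 0.54 (0.45 to 0.63), with adjusted differences of 0.37, 0.04 and 0.28. Grm4 was covered over 83.6% of its body by 3 regions, with differences from 0.25 to 0.50. The Grm6 region also held the start of Zfp879. Grm8, which like Grm4 and Grm7 encodes a group III receptor, went the other way, with 54.3 normalized counts per kb in WT and 45.3 in MommeD43 and a difference of -0.26 (-0.39 to -0.14). Its adjusted difference was -0.31. The family median was 0.50 over 7 regions, or 0.26 with the totals set equal, and the adjusted median was 0.04.

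The kainate receptor genes moved apart from each other. GRIK1, GRIK2 and GRIK3 can form channels by themselves, whereas GRIK4 and GRIK5 need one of these as partner. Grik3 was higher in MommeD43 in all 5 of its regions, which together covered 49.5% of the body. Over its start (chr4:125475351-125517250) the mark was at 63.3 normalized counts per kb in WT and 154.6 in MommeD43, from 811.9 and 2460 reads per library. The difference was 1.29 (1.22 to 1.35), 2.44-fold, and exceeded that of 99.0% of the like regions. The 4 regions further along the gene had differences of 1.33 (0.97 to 1.70), 1.06 (0.94 to 1.17), 0.80 (0.70 to 0.90) and 0.55 (0.40 to 0.71) in the order of transcription. The adjusted differences of the 5 regions ran from 0.27 to 0.94. All 5 stayed above 0 when totals were set equal, with the lowest at 0.31.

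Grik2 was the reverse. The 9.35 kb region over its start (chr10:49783851-49793200) had 29.7 normalized counts per kb in WT and 11.1 in MommeD43, or 84.8 and 39.5 reads per library. The difference was -1.41 (-1.73 to -1.10), so that WT was 2.66-fold higher. This region had the lowest GC content of the members, 39.7%, although its promoter held 20 CG. Its 200 like regions had a median of -0.55, which left an adjusted difference of -0.86; 4.5% of the like regions were lower. Grik1 had 40.7 and 27.7 normalized counts per kb over its start (chr16:88284351-88294000) at a GC content of 42.4%, a difference of -0.55 (-0.77 to -0.33) and an adjusted difference of -0.25. Of the 23 regions over member starts, 4 (17.4%) were lower in MommeD43, against 1409 of 4395 other autosomal regions over a coding start (32.1%), and Grik2 and Grik1 were the lowest of the 4. With the totals set equal these counts were 10 of 23 (43.5%) and 2566 of 4395 (58.4%).

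Grik4 had the most regions of any member, with 14 over 62.4% of its 426.4 kb. Its start region, 48.5 kb long (chr9:42907551-42956050), was at 62.0 normalized counts per kb in WT and 62.4 in MommeD43 (difference 0.01, -0.06 to 0.08; adjusted -0.37). With the totals set equal this difference was -0.23. Of the 14 regions 10 were lower in MommeD43, with a range from -0.56 to 0.26, and for 8 the counting interval held 0. Against like regions, which were mostly higher in MommeD43, 13 of 14 were lower and 11 lay below the lower quartile, with a median adjusted difference of -0.37. The lowest was a 13.85 kb region towards the 3′ end (chr9:42544701-42558550), which had 53.4 normalized counts per kb in WT and 36.3 in MommeD43, a difference of -0.56 (-0.72 to -0.40) and an adjusted difference of -0.67. An intronic region of 7.25 kb followed with 43.1 and 30.9 normalized counts per kb, a difference of -0.48 (-0.72 to -0.23) and an adjusted difference of -0.53. Grik5 had 49.1 and 80.5 normalized counts per kb in the region at its 3′ end (difference 0.71, 0.59 to 0.83; adjusted 0.35). Over the 22 kainate regions the median difference was -0.11, or -0.35 with the totals set equal, and the adjusted median was -0.35. Grik4 supplied 14 of these 22 regions.

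**Figure D4:**
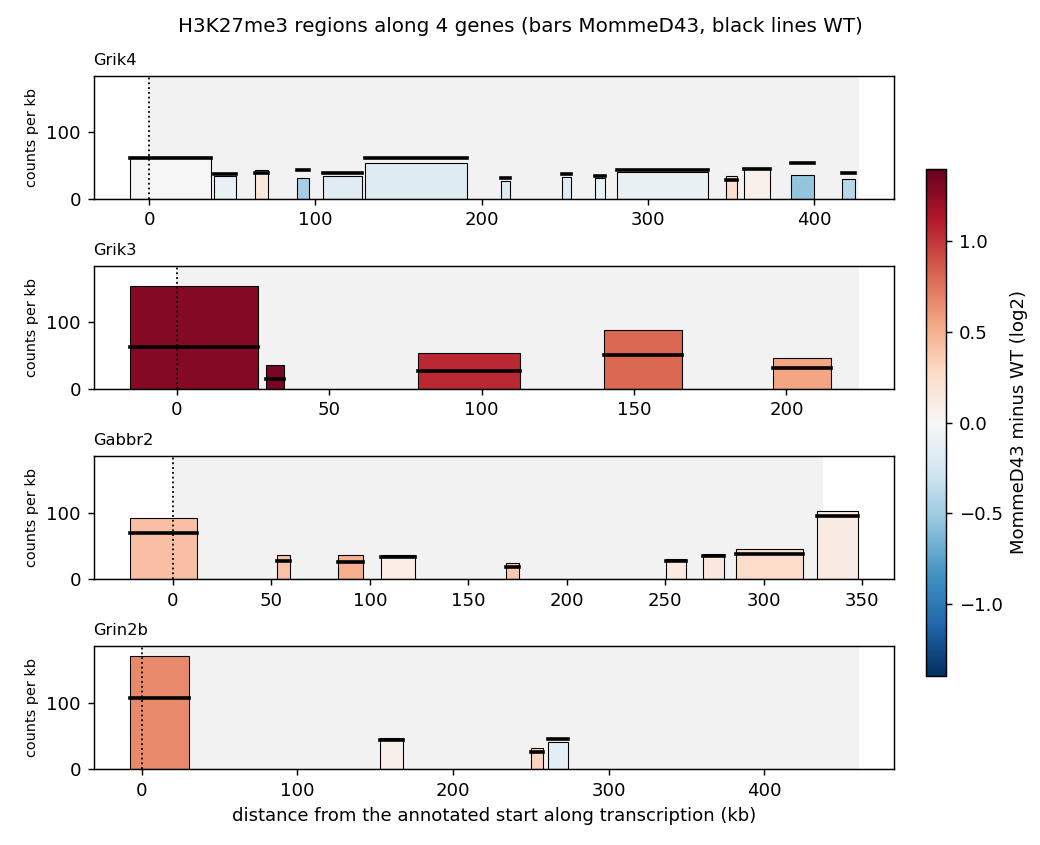
H3K27me3 regions along Grik4, Grik3, Gabbr2 and Grin2b. The x axis gives the distance from the annotated start along transcription (kb), the bar height the MommeD43 level and the black line the WT level in normalized counts per kb, the bar colour the difference (MommeD43 minus WT, log2) and the grey field the gene body. Bars stand above the black line in all Grik3 regions and below it in 10 of 14 Grik4 regions.

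Among NMDA receptor genes, Grin2b and Grin2a stood above their like regions. At the Grin2b start the difference was 0.67 (0.61 to 0.73), 1.59-fold, with 1242.8 and 2455 reads per library and an adjusted difference of 0.58, higher than in 96.5% of like regions. The 3 regions further inside Grin2b had -0.15, 0.32 and 0.09. Grin2a, the subunit that joins and partly replaces GRIN2B after birth, had 27.4 normalized counts per kb in WT and 47.7 in MommeD43 over its start (chr16:9988251-9999850). The difference was 0.80 (0.60 to 0.997) and the adjusted difference 0.55. Grin1 differed by 0.50 (0.46 to 0.55) and Grin2d by 0.61 (0.57 to 0.66), close to their like regions (adjusted 0.11 and 0.12). The Grin1 region held 2 other coding starts and the Grin2d region 4. Grin2c, a subunit mainly of the cerebellum, and Grin3b, a subunit known from motor neurons, differed by 0.14 (0.08 to 0.20) and 0.16 (0.14 to 0.18), below their GC-rich like regions (adjusted -0.38 and -0.34). These 2 regions also held 1 and 20 other coding starts, so the values of all 4 regions are not of the receptor gene alone. The family median was 0.32 over 9 regions, or 0.08 with the totals set equal, and the adjusted median was 0.12.

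At the AMPA receptor gene with a region, Gria1, no difference was detectable at this depth. The start had 24.5 and 27.2 normalized counts per kb (difference 0.15, -0.11 to 0.41), an intronic region had a difference of -0.06 (-0.28 to 0.16), and the adjusted differences were -0.0055 and -0.02. Grid1, a delta receptor that organises synapses by binding cerebellins, was higher in MommeD43 in all 3 regions. Its start had 66.2 and 90.6 normalized counts per kb (difference 0.45, 0.35 to 0.56; adjusted 0.09), and the intronic regions had differences of 0.73 and 0.35, with adjusted differences of 0.36 and -0.0093.

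Of the 6 GABA-A regions, 5 lay over a start with differences of 0.13 to 0.34, and 1 inside Gabrb1 was lower in MommeD43. Gabra2 differed by 0.13 (-0.27 to 0.53), Gabra5 by 0.32 (0.08 to 0.56) and Gabrb2 by 0.26 (-0.04 to 0.56) over their starts. Gabra4 and Gabrb1 start close together in opposite directions and shared 1 region of 8.15 kb (chr5:71652951-71661100), with 38.6 and 44.9 normalized counts per kb and a difference of 0.22 (0.0025 to 0.44). For Gabra2 and Gabrb2 the counting interval held 0. All 4 regions had 42.2% to 45.4% GC, where like regions were mostly lower in MommeD43, so the adjusted differences were 0.40 for Gabra2, 0.35 for Gabra5, 0.32 for Gabrb2 and 0.27 for the shared region. Each of the 4 lay above the upper quartile of its like regions. With the totals set equal, Gabra2 and the shared region would lie below 0, whereas the adjusted differences stay as they are. Gabrd, the delta subunit of extrasynaptic receptors, lay in a 120.35 kb region that also held the starts of Prkcz and Cfap74. It had 73.6 and 92.9 normalized counts per kb, a difference of 0.34 (0.30 to 0.38) and an adjusted difference of -0.00060. A second Gabrb1 region inside the gene had a difference of -0.66 (-0.88 to -0.44) at 40% GC, with an adjusted difference of -0.14.

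The GABA-B receptor is a dimer of GABBR1, which binds GABA, and GABBR2, which couples to the G protein. Gabbr2 was marked along 34.1% of its body by 9 regions, all of them higher in MommeD43, by 0.10 to 0.51. For 3 of the 9 the counting interval held 0. The start (chr4:46979751-47013700) had 69.0 and 92.5 normalized counts per kb (difference 0.42, 0.34 to 0.50). These values were those of their like regions, with a median adjusted difference of -0.01, 4 regions higher and 5 lower. With the totals set equal 5 of the 9 stayed above 0. The Gabbr2 region of the highest level, 94.1 and 101.9 normalized counts per kb, lay at the 3′ end and held the start of Tbc1d2. Gabbr1 was level over its start at 26.3 and 25.9 normalized counts per kb (difference -0.02, -0.25 to 0.21; adjusted -0.27). A region at its 3′ end, which also held the start of Olfr90, had a difference of 0.54 (0.40 to 0.68) and an adjusted difference of 0.51.

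Genes that make, clear or package the transmitters were marked as well. The counts below stand against 29.0% of autosomal coding genes with a region over the start, and against 67.9% higher with a median of 0.17 over the 4395 other autosomal regions at coding starts. Of the 13 autosomal transporter genes, 9 had a region over the start, with 6 higher and 3 lower, a median of 0.11 and an adjusted median of -0.12. Slc1a2, the main glial glutamate transporter, was at 55.4 and 27.6 normalized counts per kb, a difference of -1.0 and an adjusted difference of -0.93. Of the 7 genes of synthesis and breakdown, 5 had a region over the start, with 3 higher and 2 lower, a median of 0.47 and an adjusted median of 0.24. Among them Gad1, which makes GABA from glutamate, was at 161.0 and 322.2, a difference of 1.0 and an adjusted difference of 0.71. Auxiliary subunits of glutamate receptors had 7 of 13 starts covered (4 higher, 3 lower, median 0.06, adjusted median -0.14). GABA-B auxiliary subunits had 3 of 3 (1 higher, 2 lower, adjusted median -0.06) and synaptic scaffolds 3 of 8 (2 higher, 1 lower, adjusted median 0.06), with no difference of 1 or more. Among the marker genes used to check the cells, Pax6 differed by 1.18 and Tbx5 by 2.67, with adjusted differences of 0.87 and 2.38.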

How the data were processed

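H3K27me3 ChIP-seq was performed by the authors on 3 NSC lines per genotype. The labels name micrococcal nuclease for the digestion of nuclei and the methods a Covaris instrument for shearing, so how the chromatin was cut is uncertain. Per the submitters' processing notes, reads were handled with Trim Galore 0.4.4 and Bowtie2 2.3.4.1 on GRCm38.p6. The methods describe SeqMonk: peaks of both genotypes were called on merged replicates against WCE, widened, and joined where close. The deposited values are log2 read counts per region, scaled by the authors to library size and pooled over the 3 libraries. They were not divided by length and WCE was not subtracted. 

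Read numbers were recovered from the values: the antilog of 3 times a value should be a whole multiple of 1 constant per column, and 1138 of 1139 low WT values (99.9%) and 681 of 683 low MommeD43 values (99.7%) were within 0.1 of a whole number. Counting error was Poisson over 3 libraries. With 1 pooled column per genotype there was no test, no SD and no p-value. GC content came from the GRCm38.p6 sequence, gene positions from GENCODE vM21, and promoters from RefSeq. Like regions were the 200 nearest autosomal non-member regions by rank of GC content and mean value. The read recovery and the adjustment were tested on simulated data. The members and gene lists were chosen with earlier results of these data known.

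Named with values were each member's region over its start, the 5 highest and 5 lowest differences and the 3 highest and 3 lowest adjusted differences among member regions that reached 50 reads per library in 1 genotype or both, and genes of other lists with a difference of at least 1 over their start. Promoters were those of members with the highest and lowest level per kilobase over a start and of starts without a region with the most and fewest CG. Other member regions and the Grm7 and Grik2 promoters were named after their values were seen. Some genes of the other lists are not reported here. Python 3.11.15 with numpy 2.4.6 and pandas 2.3.3 was used, and figures were drawn with matplotlib 3.10.9.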

Additional observations from a re-analysis of the deposited data

How the results depend on the processing

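The median difference of the member regions, 0.23, became -0.0090 with the totals of both columns set equal and 0.011 with the GC trend over autosomal regions removed. It stayed between 0.13 and 0.41 under the other alternatives (centring on autosomal regions, abundance trend removed, a pseudocount of 10 normalized counts, at least 50 reads per library, no flank or 10 kb, 1 region per gene, no other coding start, and, chosen after seeing the data, Grik4 or Gabbr2 left out). The median adjusted difference, -0.0074, was 0.10 without Grik4 and 0.12 with 1 region per gene, and lay between -0.0074 and 5.085e-05 under the other alternatives. Member regions higher by at least 1 numbered 4, 2 with the GC trend removed and 1 with Grik3 left out, and those lower by at least 1 numbered 1, and 0 with the GC trend removed. Among all autosomal regions this split of 267 higher to 343 lower became 138 to 667 with totals set equal and 215 to 80 with the GC trend removed. The 26 members with a region and the 24 with one at the start did not vary with the flank or the distance allowed. Of 29 named regions, 23 kept their sign with totals set equal and 25 with the GC trend removed, including all 5 past 1. No paired analysis was possible because the table has 1 pooled column per genotype and carries no replicate numbers, and leaving out each replicate was not run for the same reason. Spread between lines is unknown, and regions with few reads, such as that of Gabra2, limit what small differences can show.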
